A study of Mus musculus with 32 samples.

Results

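The contacts described here are those of the Klf2 promoter fragment with fragments from 10 kb up to 1 Mb away on the same chromosome. They were taken from both deposited contact tables as the pairs of the Klf2 bait in that distance range and joined by bait and fragment number. This gave 94 fragment pairs of 30435 in the whole series, and of 1237 that all 14 baits had in this range. Of the 94 pairs, the control-named table listed 87, 82 were listed in the IFNγ-named one, and 75 stood in both.

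In Capture-C, fixed chromatin is digested, here with DpnII, neighbouring ends are joined, and the joined products of selected bait fragments are pulled out and sequenced, which gives a read count for each pair of fragments. The material was organoids, epithelial cultures grown from the small intestine, of aged C57BL/6JRj mice, whose labels give no age in months. One group received 500 pg/ml of the cytokine interferon gamma (IFNγ) over 3 hours and the other received growth medium alone for the same time. Each group had 4 libraries, from 2 mice at 2 passages each between passage 2 and 5, and the 32 samples are these 8 libraries on 4 sequencing lanes. Both groups came from aged mice, and no genotype beyond the strain is given. Contact counts hold no expression values, so the cell type could not be checked against markers. Sample descriptions and table names assign the tables to opposite conditions, so the tables are called control-named and IFNγ-named and neither is assigned to a treatment. Signed differences are IFNγ-named minus control-named and turn sign under the opposite assignment. The count columns name no mouse or passage, so libraries are numbered within their table, a number pairs nothing between tables, and p-values over 4 libraries from 2 mice may be too small.

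Klf2 encodes a zinc-finger transcription factor of the Krüppel-like family, known for keeping endothelial cells and naive T cells quiescent and for its place in the transcription network of pluripotent stem cells. A promoter in a gene-dense region has many other promoters and gene bodies within reach, and a contact map records how often each fragment was ligated to it. A contact frequency does not say whether the contacted fragment regulates the gene.

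The Klf2 gene (ENSMUSG00000055148.7) lies on chromosome 8 of mm10 from 72319033 to 72321656 on the plus strand. Its bait fragment spans chr8:72317488-72319340, is 1853 bp long, and holds the annotated transcription start site (TSS), with 1545 bp before it and 308 bp from it on. The 221 bases of the RefSeq promoter entry (GRCm38.p6) that precede this start, chr8:72318812-72319032 on the plus strand, are shown. They are part of the 1545 bp before the start in the bait, and the rest was not searched for motifs. Capitals mark matches to a GC box (GGGCGG) and to the MEF2 consensus. The Unc13a and Eps15l1 fragments below it are 2 of the 5 with the highest median share over the libraries, and the fragment 273 kb downstream is a contact that rests on 1 library. They are plus-strand genome sequence of the same build, with the DpnII site GATC at their start in capitals.
Klf2 promoter: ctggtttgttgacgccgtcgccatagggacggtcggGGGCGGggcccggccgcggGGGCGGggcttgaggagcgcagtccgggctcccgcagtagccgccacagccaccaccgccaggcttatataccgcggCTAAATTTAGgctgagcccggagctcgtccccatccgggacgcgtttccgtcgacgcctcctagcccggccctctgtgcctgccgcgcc
Unc13a intron fragment, chr8:71633041-71633183: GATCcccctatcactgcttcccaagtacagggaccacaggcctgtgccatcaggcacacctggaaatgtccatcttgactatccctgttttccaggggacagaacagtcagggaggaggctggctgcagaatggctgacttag
Eps15l1 intron fragment, chr8:72354487-72354613: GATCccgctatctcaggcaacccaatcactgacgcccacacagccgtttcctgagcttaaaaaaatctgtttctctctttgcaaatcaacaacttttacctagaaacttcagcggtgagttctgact
Fragment 273 kb downstream, chr8:72591313-72591418: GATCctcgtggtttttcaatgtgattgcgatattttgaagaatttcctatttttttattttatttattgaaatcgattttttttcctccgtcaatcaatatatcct

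In these 221 promoter bases the GC box matched at 2 places on the plus strand. The palindromic MEF2 match was read on both strands at bases 133 to 142. The GC box is present in the same stretch of 28.7% of 32851 RefSeq promoters and the MEF2 consensus in 2.61%. Both were added to the search after the promoter sequence had been seen. Searched on both strands, the STAT site TTCNNNGAA, the IRF site GAAANNGAA, the KLF site CCACACCC, the AP-1 site TGANTCA and the CTCF core AGGGGGCGC gave no match in this window. They occur in 6.3%, 6.3%, 2.82%, 6.13% and 0.91% of the promoters. Among the 94 contacted fragments the STAT site stood in 14 (14.9%, against 14.7% of the 3809 fragments in range), the IRF site in 10 (10.6% against 14.5%) and the AP-1 site in 20 (21.3% against 13.0%). The MEF2 consensus stood in 10 (10.6% against 7.04%), the GC box in 9 (9.57% against 7.67%) and the KLF site in 6 (6.38% against 5.41%). The CTCF core stood in 0, against 0.236% of the fragments in range. Contacted fragments were longer, with a median of 415 bp against 368 bp, and matches were not adjusted for length. All these counts are descriptions of letters and were not tested.

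The libraries held 23037 to 37290 reads over all baits, and the range of 10 kb to 1 Mb took 19.2 to 30.0% of the Klf2 reads of a library. Another 7.0 to 13.3% lay under 10 kb, 24.2 to 31.6% beyond 1 Mb on chromosome 8, and 35.1 to 46.6% on other chromosomes. Klf2 reads in the range numbered 680, 769, 382 and 403 in control-named libraries 1 to 4 and 344, 424, 291 and 401 in IFNγ-named libraries 1 to 4. As a share of all reads of the library this was 1.75% ± 0.340 (SD, n = 4) and 1.38% ± 0.152 (SD, n = 4). The tables overlapped, and the two-sided exact permutation test gave p = 0.143, where 4 against 4 libraries cannot go below 0.0286. In edgeR's quasi-likelihood test of bait totals the log2 difference was -0.34 (SE 0.197, adjusted p = 0.612). That test called 0 of 14 baits (0% called), and 0 had an unadjusted p under 0.05.

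The 94 pairs held 3694 reads, of which the control-named libraries gave 2234 and the IFNγ-named libraries 1460. Only 2.47% of the 3809 fragments of 100 bp or more in the range had any Klf2 read. Reads were present in all 8 libraries for 60 pairs, which together held 3421 reads, while 15 pairs had a single read. Presence can mean 1 read: the pair 273 kb downstream had 62 in control-named library 1 and 1 in each other library. The pair 11.8 kb upstream had 8 to 14 in each library. Upstream of Klf2 lay 59 pairs with 2140 reads, and downstream, in the direction of transcription, 35 pairs with 1554 reads, from 1908 and 1901 fragments.

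**Figure D1:**
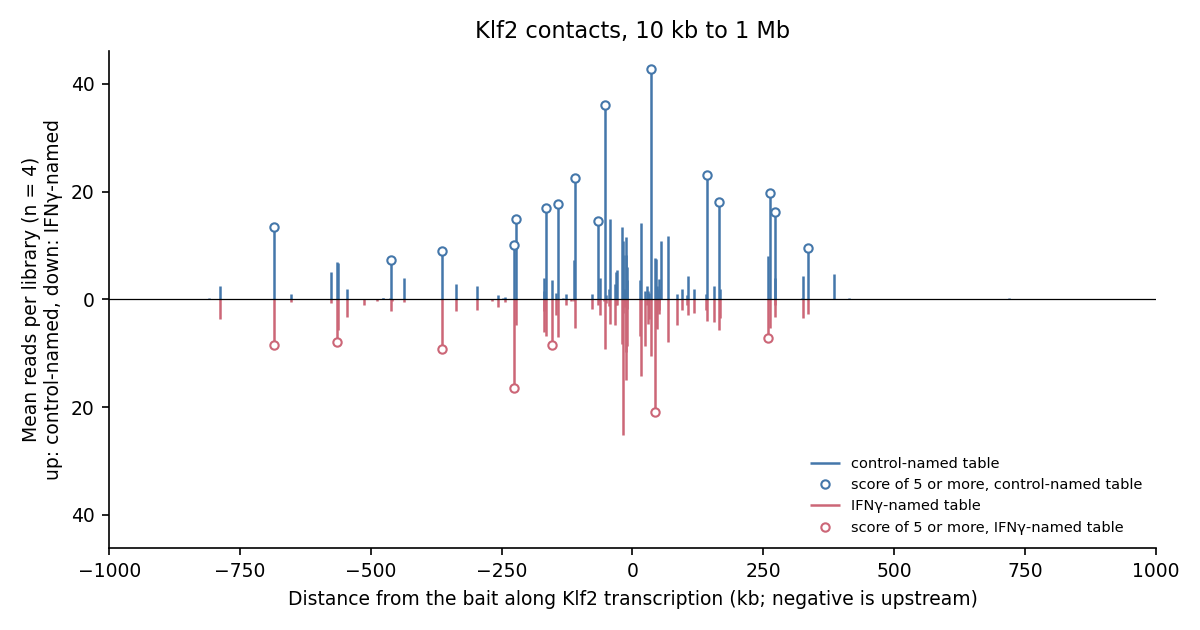
Mean reads per library (n = 4 libraries of a table) of each Klf2 pair against its distance from the bait in kb, negative upstream; bars point up for the control-named and down for the IFNγ-named table, and open circles are contacts with a score of 5 or more. Upstream the farthest pair lies at 809 kb with 1 read and the farthest with 10 or more reads at 789 kb, and beyond 500 kb downstream there is 1 read.

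Of all 8 libraries, 41.98% ± 4.25 (SD, n = 8) of the Klf2 reads lay downstream. The share was 42.1, 41.2, 49.2 and 39.95% in the control-named libraries and 38.7, 40.6, 36.8 and 47.4% in the IFNγ-named libraries. The tables overlapped, at 43.1% ± 4.16 and 40.8% ± 4.63 (SD, n = 4 each; two-sided exact permutation p = 0.457). Against the median of the other 13 baits in the same library, Klf2 lay 8.50 percentage points lower (Klf2 42.0%, others 50.5%). It was lower in 7 of 8 libraries, with a two-sided exact sign-flip permutation p of 0.0234 and 0.0586 after adjustment over 3 such measures, which misses 0.05. From 20 kb on, the difference was -2.60 points (exact sign-flip p = 0.305). Baits are not replicates, so this compares Klf2 with these baits only.

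The distance from the bait divided the reads unevenly between the sides. From 10 to 50 kb there were 735 reads upstream and 672 downstream, and from 100 to 250 kb 655 and 318. From 250 to 500 kb the order turned, with 182 upstream and 360 downstream. From 500 kb to 1 Mb there were 278 reads upstream and 1 downstream, from 967 and 1010 fragments. Downstream reads were thus 0.358% of the far reads of Klf2, the lowest of the 14 baits, followed by Klf4 at 12.7% and Sall4 at 16.1%. The contrast was noticed in these data and is given without a test. The farthest downstream pair with 10 or more reads lay at 384 kb and had 18 of its 19 reads in control-named library 2, while the farthest upstream one lay at 789 kb.

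**Figure D2:**
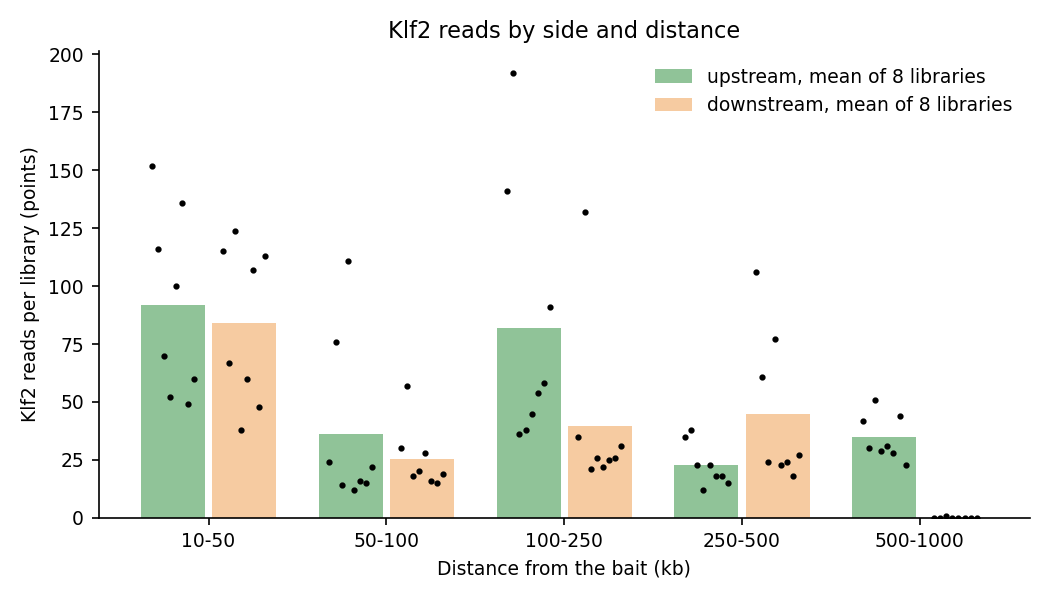
Klf2 reads per library by distance class in kb and side; bars are means of the 8 libraries and points are the libraries. In the class of 500 to 1000 kb each library has 23 to 51 reads upstream and 0 or 1 downstream.

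Distance classes did not differ between the tables beyond their spread. The class of 10 to 50 kb held 34.0% ± 13.5 of the control-named and 45.1% ± 9.89 of the IFNγ-named reads (SD, n = 4 libraries each; two-sided exact permutation p = 0.229, adjusted over 5 classes 0.571). Single libraries ranged from 22.3 to 57.3%. In the class of 50 to 100 kb control-named library 4 reached 32.5% and the other 7 libraries 7.55 to 17.3%. The lowest unadjusted p of the 5 classes was 0.143, for 250 to 500 kb, with 17% ± 5.13 and 11.5% ± 1.62 (SD, n = 4 each; exact permutation test, adjusted p = 0.571). Within 100 kb Klf2 had 52.8% of its reads against a median of 46.8% for the other baits (higher in 6 of 8 libraries, exact sign-flip p = 0.109). With each pair counted once per library the direction turned, to -2.11 points, and passed (exact sign-flip test, adjusted p = 0.0156). The baits whose profile over 40 steps of 50 kb was nearest to that of Klf2 were Lifr, Ciita_2 and Dppa5a, with mean absolute differences of 2.03, 2.05 and 2.16 percentage points.

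The locus is gene-dense: 55 protein-coding genes had fragments in range, second among the 14 baits after Stat3 with 85. Klf2 reads fell on 20 of them, and 35 had none. Among the 94 fragments 18 overlapped an exon, 34 lay in introns and 42 outside protein-coding genes, with 676, 1621 and 1397 reads. In the whole range 70.8% of fragments overlapped a protein-coding gene and 55.3% of those with reads did. Reads were compared at matched distance, since genes are not evenly placed around the bait. On average 61.2% ± 8.54 of a library's reads lay on genes, and 52.9% ± 4.31 (SD, n = 8) would if the reads of each step of distance and side were spread evenly over its fragments. The difference was 8.23 percentage points, positive in 7 of 8 libraries (two-sided exact sign-flip permutation p = 0.0234). All libraries share the same bait, fragments and gene annotation, so this p measures repeatability over libraries only. Whether contacts placed at random on the fragments would give such a difference was not tested. When fragments within 5 kb of a gene were counted too, the difference was 4.13 points and no longer passed (p = 0.242, exact). Against the median of the other 13 baits the share on genes was 8.92 points higher in Klf2, in 6 of 8 libraries (exact sign-flip p = 0.0391, adjusted p = 0.0586). This comparison took no account of gene coverage. Klf2 had the highest percentage of fragments on genes of the 14 baits, 70.8%, followed by Ciita_3 at 67.0%, with Sox2 lowest at 5.13%. The share of reads in the median library was higher than for Klf2 (60.7%) in Stat3 (77.1%), Esrrb.2 (66.0%), Ciita_1 (63.2%) and Ciita_3 (61.1%). In the remaining baits it was lower. Between the tables the Klf2 share on genes did not differ beyond the spread, at 61.5% ± 10.0 and 60.8% ± 8.31 (SD, n = 4 each; exact permutation p = 0.943).

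**Figure D3:**
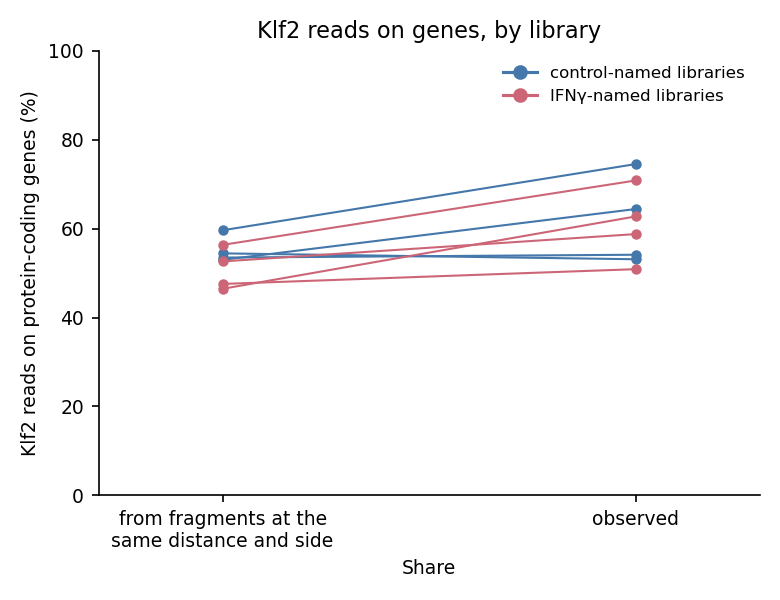
Percentage of Klf2 reads on protein-coding genes in each library, observed (right) and from the fragments at the same distance and side (left); each line is 1 of 8 libraries. Observed shares run from 50.9 to 74.5% and 7 of 8 lines rise.

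Of a chosen list of 6 genes with roles in endocytosis and vesicle traffic, which does not hold every such gene of the locus, 3 had Klf2 reads, 986 in all. Eps15l1, an endocytic adaptor related to EPS15 and the next gene downstream, took 720 reads over 15 fragments, more than any other gene, and spans 72340999 to 72421460. It has 156 fragments in range, and 643 reads would lie on them if the reads of its distance steps were spread evenly over their fragments, so the observed count was 1.12 times that number. Among others, the same ratio was higher for Slc35e1 (3.60), Cib3 (2.89), Zfp961 (2.59), Cherp (2.55) and Gm10282 (2.52). The largest library held 38.5, 50.4, 18.3, 54.8 and 44.2% of the reads of these genes, in that order, and 17.6% for Eps15l1. The share of Eps15l1 was 17.6, 13.4, 33.2 and 11.9% in the control-named and 18.0, 23.6, 16.5 and 27.9% in the IFNγ-named libraries. The tables overlapped throughout (19.0% ± 9.77 and 21.5% ± 5.25, SD, n = 4 each; exact permutation p = 0.714, adjusted over 13 genes 0.912). Its largest fragment, the intron sequence shown above, 36.1 kb from the bait, had 67, 11, 84 and 9 reads in the control-named and 7, 11, 10 and 14 in the IFNγ-named libraries, so control-named libraries 1 and 3 stood above the rest. Rab8a, a small GTPase of exocytic transport, had 164 reads and Ap1m1, a subunit of the AP-1 clathrin adaptor, 102. Ap1m1 had 64 reads in control-named library 2 and 4 to 8 in each other library. Myo9b, Mvb12a and Use1 had no read.

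Of a chosen list of 4 genes, Bst2, Hsh2d, Plvap and F2rl3, 2 had reads, 10 in all. Bst2, which encodes the interferon-induced antiviral protein tetherin, lies 782 kb upstream and had 0 reads on its 8 fragments, which of 3694 reads allows a share of up to 0.0812%, counting error only. Hsh2d, an adaptor of lymphocyte signalling, had 9 reads, 2 in IFNγ-named library 3 and 1 in every other library. Plvap, which encodes a protein of endothelial diaphragms, had 1 read and F2rl3, a thrombin receptor gene of platelets, none. Jak3, the lymphocyte cytokine receptor kinase and no member of the list, had none on 27 fragments. If the reads of their distance steps were spread evenly over the fragments, Hsh2d would have 69.3 reads, Bst2 2.06, Plvap 0.29 and F2rl3 0.0729. The gap between these numbers and the observed counts was not tested. The number for Hsh2d rests in part on neighbouring fragments with 1 high library. At 142 kb upstream control-named library 1 held 59 of 99 reads, and at 110 kb control-named library 2 held 70 of 111. With so few reads on this list, no difference between tables was detectable at this depth.

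A chosen list for transcription and chromatin held 4 genes besides Klf2. On it, Cherp had 135 reads and Sin3b 1, while Med26, a Mediator subunit, had none on 101 fragments and Nr2f6 none on 14. Whether Cherp belongs there by function was not checked. Zinc-finger genes of the locus are not on the list, among them Zfp961 with 93 reads and Zfp709, Zfp882 and Zfp617 with none. An even spread within distance steps would give Cherp 52.9 reads and Med26 67.8. Cherp had 12, 74, 7 and 9 reads in the control-named and 4, 7, 9 and 13 in the IFNγ-named libraries, so that control-named library 2 held more than every other library. A single fragment that also overlaps 1700030K09Rik gave 108 of the reads of both genes, which therefore cannot be told apart there.

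Of the 8 genes of the mixed list of cytoskeletal and other neighbours with fragments in range, 6 had reads, 684 in all. Tmem38a, a cation channel of the sarcoplasmic reticulum, had 161 reads, 65 of them in control-named library 4. Tpm4, a tropomyosin of the actin cytoskeleton, had 150, Cib3, a calcium-binding protein, 141, and Slc35e1, a member of a solute carrier family, 117. Smim7 and Fam32a had none. Outside the lists, Olfr373, an olfactory receptor gene, had 185 reads and Gm10282, the next gene upstream, 95. Unc13a, a presynaptic priming factor and the farthest of these genes, had 94 reads of which 88 came from the fragment shown above, 685 kb from the bait. That fragment had 16, 11, 16 and 11 reads in the control-named and 5, 11, 10 and 8 in the IFNγ-named libraries, so that all 8 libraries held it.

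**Figure D4:**
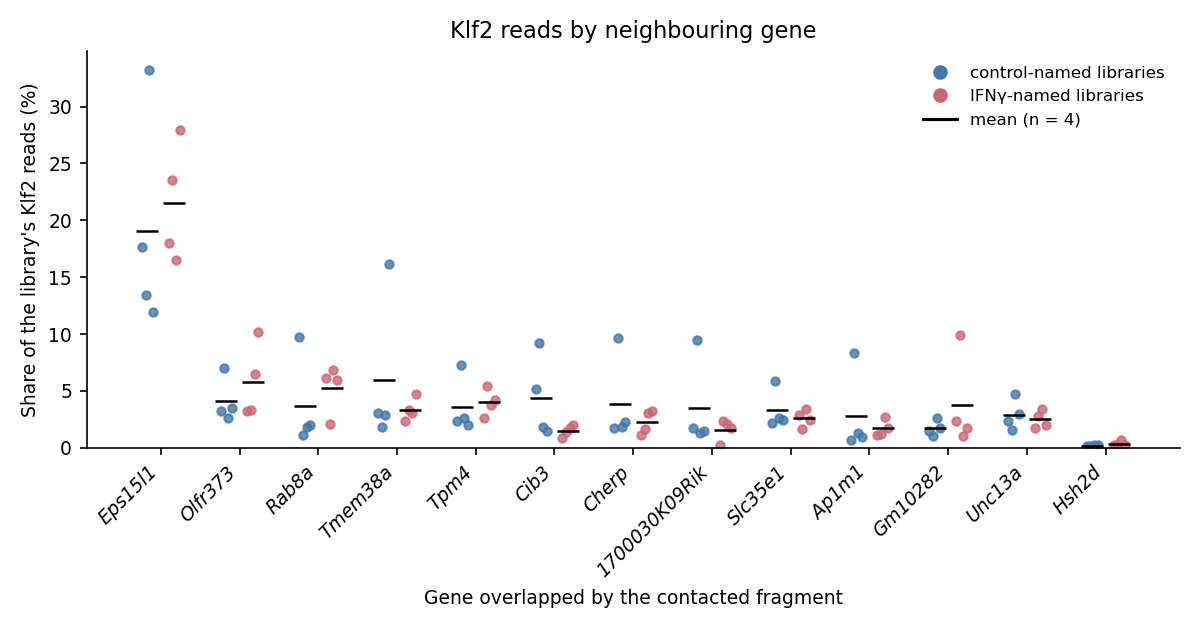
Share of a library's Klf2 reads (percent) on each named gene; points are libraries, 4 per table, and black lines are means. Eps15l1 lies above the other genes in 7 of the 8 libraries, and in several genes 1 library stands apart.

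No gene share separated the tables. Of the 15 genes with 20 or more reads, 0 had libraries that did not overlap between tables, beside 3.08% of 130 such bait and gene combinations in the series. The exact permutation p ran from 0.143 (Hsh2d) to 0.943 (Ap1m1) over 13 genes, all 0.912 or higher after adjustment. In edgeR's quasi-likelihood test on counts per gene, 0 of 144 combinations were called (0% called), 21 had an unadjusted p under 0.05, and of the 15 Klf2 genes tested 2 did. These were Cib3 (log2 difference -2.03, SE 0.737, p = 0.0192, adjusted p = 0.313 in edgeR) and Nwd1 (-1.92, SE 0.797, p = 0.0357, adjusted p = 0.313). Cib3 had 35, 71, 7 and 6 reads in the control-named and 3, 6, 5 and 8 in the IFNγ-named libraries, so the tables overlapped and control-named libraries 1 and 2 were high. Nwd1 had 39 of its 68 reads in control-named library 2.

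Single pairs and windows gave the same count. In edgeR, 0 of 3673 pairs (0% called; 614 with an unadjusted p under 0.05) and 0 of 636 windows of 10 kb (0% called; 107) were called. Of 69 Klf2 pairs tested, 9 had an unadjusted p under 0.05 and all 9 were lower in the IFNγ-named table, with log2 differences of -6.16 to -1.49. The lowest adjusted p was 0.282. In 7 of these 9, 1 library held over 50% of the reads. The direction of the 614 pairs was not counted. The shared direction of the 9 depended on the libraries. Without IFNγ-named library 1, 2, 3 or 4, the Klf2 pairs under 0.05 numbered 4, 5, 5 and 4. Of these, 2, 4, 4 and 3 were higher in the IFNγ-named table. Without control-named library 1, 2, 3 or 4 they numbered 10, 8, 11 and 12, all lower in it. DESeq2 called 0 at each level and had 274 pairs, 60 windows and 15 gene combinations with an unadjusted p under 0.05.

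The authors' score measures a pair's excess over a modelled background within its table, and contacts are called here at 5 or more. The control-named table had 16 such Klf2 contacts among 87 pairs, or 18.4%, beside 11.8% of the pairs of all baits. The IFNγ-named table had 7 of 82, or 8.54%, beside 10.4%. Of the 20 contacts called in either, 3 were called in both, 18.75% of the first list and 42.9% of the second. These lay in an intron of Unc13a, in an intron of Zfp961, a zinc-finger gene, 363 kb upstream, and in an intron of Olfr373 226 kb upstream. The Zfp961 fragment, chr8:71955179-71955503, had 11, 9, 9 and 7 reads in the control-named and 13, 12, 6 and 6 in the IFNγ-named libraries. No library stood apart, and the tables overlapped.

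The highest score of the control-named table, 6.43, belonged to the fragment chr8:72459585-72461570 on Cherp and 1700030K09Rik, 142 kb downstream. It had 11, 72, 4 and 5 reads in the control-named and 1, 4, 5 and 6 in the IFNγ-named libraries. The highest of the IFNγ-named table, 6.31, belonged to chr8:72092141-72092952 in Olfr373, with 12, 10, 8 and 10 and then 8, 9, 10 and 39. In both fragments 1 library stood above the rest. The fragment 273 kb downstream, shown above, was called in the control-named table with 62 reads in library 1 and 1 in every other library of both tables.

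In 12 of the 16 control-named and 4 of the 7 IFNγ-named calls, 1 library held over 50% of that table's reads. Of the 34 pairs with 40 or more reads, 15 had over 50% of the reads of all 8 libraries in 1 library, 44.1% beside 41.6% of 526 such pairs of the other baits. The top library was in the control-named table for 12 of the 15, library 2 in 7 of them, and in the IFNγ-named table for 3. These 15 pairs held 914 reads of the control-named and 359 of the IFNγ-named libraries, and outside them the tables held 1320 and 1101. Shares were recomputed without them, as given further below. The difference between tables went from 11.0 to -0.29 points for 10 to 50 kb and from -5.47 to -4.22 for 250 to 500 kb. Their part in the number of calls was not tested.

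**Figure D5:**
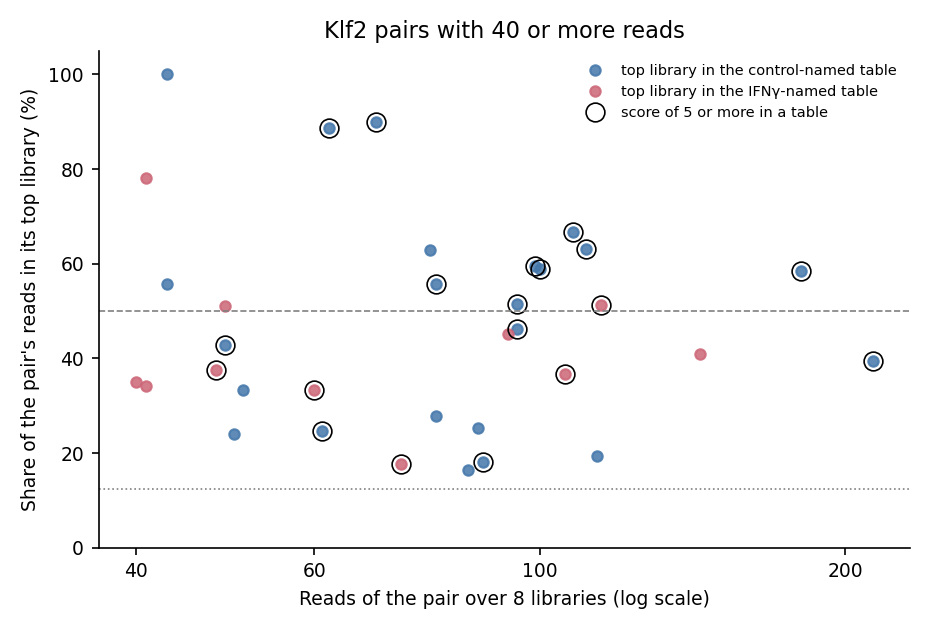
For the 34 Klf2 pairs with 40 or more reads, the share of reads in the library with the most (percent) against the reads of the pair over 8 libraries (log axis); colour gives the table of that library and rings mark contacts with a score of 5 or more. The dashed line is 50% and the dotted line the equal share of 12.5%, and 15 pairs lie above the dashed line.

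Ranked by their median share over the 8 libraries, the leading fragments were those 17 kb downstream (3.24%), 36.1 kb downstream in Eps15l1 (3.02%), 11.8 kb upstream (2.56%), 52.7 kb upstream (2.50%) and 685 kb upstream in Unc13a (2.47%). The first, chr8:72335223-72335685, had 22, 17, 11 and 7 reads in the control-named and 12, 19, 13 and 13 in the IFNγ-named libraries. The one 52.7 kb upstream had 106 reads in control-named library 4 and 7 to 18 in each other library. The contacted fragments had a median length of 415 bp, a GC content of 46.6% and a repeat content of 32.5%, against 368 bp, 45.6% and 28.9% over all fragments in range. A TSS lay within 1 kb of 14 of them (14.9%, against 13.1% of all). Of the 94 fragments, 19 also had reads from other baits, 28 reads in all.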

How the data were processed

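Per the labels' protocols, organoid chromatin was crosslinked, cut with DpnII, ligated and captured. The submitters' processing notes name Bowtie2 and mm10; for versions, duplicate removal and the caller's settings there is no statement in these sources. Deposited by the authors were 2 tables with, per the file headers, counts of reads per pair in 4 columns, a merged value treated as a score, a modelled background signal and a contact score. No column of values was left unused for want of a sample.

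Tables were joined by fragment number, with counts of 0 for a pair listed in 1 table. Fragments were matched to GATC sites of GRCm38.p6 and to GENCODE genes. Counts over all baits were tested with edgeR 4.0.16 (quasi-likelihood, TMM, 10 or more reads, Benjamini-Hochberg adjusted p of 0.05; library totals for bait totals), with DESeq2 1.42.0 as alternative, in R 4.3.3. Shares were compared by exact permutation tests (Python 3.11.15). The edgeR script was tested on simulated counts with much less spread between libraries than these data. Here the common coefficient of variation in edgeR was 0.79 for pairs, 0.74 for windows and 0.67 for genes. The simulation therefore gives no power for the tests reported here. Libraries held 23037 to 37290 reads, and without molecular identifiers limits cover counting error only. Alternatives covered distance, read minimum, capped counts, pairs with 1 high library, gene assignment, score and libraries left out. Named genes are the 12 with most reads, those separating the tables with 20 or more reads, Bst2, Hsh2d and the direct neighbours. Named fragments are the 5 with the highest median share and the called contacts, all summarised and some shown. Zfp961, Zfp709, Zfp882, Zfp617, Nwd1, Jak3 and genes named from the lists were named after their values were seen. Members and lists were chosen with earlier results of these data known.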

Additional observations from a re-analysis of the deposited data

Results flagged for a closer look

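In 9 of 42 groups of 4 libraries, 1 library stood far from the other 3 in the share of Klf2 reads on a gene or in another share, by Dixon's criterion. For independent, normally distributed values chance flags about 1 in 20 groups, or 2.1 of 42. These shares have a common total, some rest on few reads and some share fragments. Whether 9 exceeds chance here was therefore not tested. In control-named library 2 these were Tpm4 (7.28%), Cherp (9.62%), 1700030K09Rik (9.49%), which shares its largest fragment with Cherp, Slc35e1 (5.85%) and Ap1m1 (8.32%). Rab8a reached 9.71% in control-named library 1 and Tmem38a 16.1% in control-named library 4. In the IFNγ-named table Gm10282 reached 9.91% in library 2 and Hsh2d 0.687% in library 3, the latter on 2 reads. Each was the highest library of its group.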

How the results depend on the processing

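No paired analysis was possible because the count columns name no mouse or passage. Of 401 recomputed values, 335 were rated the same in direction and side of the threshold, 54 changed sign, 1 lost and 6 gained the threshold and 5 counts moved by over 1.5 times. Those rated the same include differences of 0 where a gene had no read left. Examples are Gm10282 from 20 kb on and Rab8a within 1 kb of a TSS. None of the values between tables that changed sign had passed the adjusted threshold, and the cause was not tested. With 3 libraries against 4 the exact test cannot go below 0.0571. Differences are in percentage points, IFNγ-named minus control-named.

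With each pair counted once per library, the difference was 0.64 for 50 to 100 kb, 0.223 for 100 to 250 kb, -0.298 for 500 to 1000 kb, 0.208 for Tmem38a, Cherp and Slc35e1, 0.649 for Ap1m1, -0.217 for Gm10282 and 0.601 for the share on genes. Against the other baits it was then -10.8 (downstream), -2.11 (within 100 kb) and 6.55 (on genes), and all 3 passed (adjusted p = 0.0117, 0.0156 and 0.0117, exact). With counts capped at 5 it was 0.787 downstream, 1.76 for 100 to 250 kb, 0.155 for Cherp, 0.236 for Slc35e1, 0.0248 for Ap1m1, -0.36 for Gm10282 and 0.814 on genes, and against the other baits -10.2, -2.15 and 9.9, of which the downstream share and the share on genes passed (adjusted p = 0.0117 each, exact). Without the 15 pairs that 1 library dominated it was -0.29 for 10 to 50 kb, 0.915 for 50 to 100 kb, 3.79 for 100 to 250 kb, -0.195 for 500 to 1000 kb, -5.99 for Eps15l1, 0.146 for Tmem38a, 0.635 for Cherp, 0.398 for 1700030K09Rik and 0.381 for Ap1m1. There the downstream share moved to -8.19 (exact p = 0.0857), the share on genes to -3.31, Slc35e1 to -2.49, Unc13a to -1.28, Cib3 to -1.70, Rab8a to 2.82, Olfr373 to 2.66 and Tpm4 to 1.26, and the downstream difference from the other baits to -5.27. From 20 kb it was 0.0836 downstream, 3.19 for 100 to 250 kb and 5.78 on genes, the share on genes lay 24.4 above the other baits (adjusted p = 0.0234, exact), and the downstream share -2.60 from them (exact p = 0.305). Up to 500 kb it was 0.456 for 100 to 250 kb and 0.679 on genes. With fragments within 5 kb of a gene it was 3.95 on genes, and the excess over the matched share was 4.13. With fragments within 1 kb of a TSS it was -1.26 for Eps15l1, 0.629 for Cherp and 0.305 for 1700030K09Rik, and with all annotated genes 2.02 on genes.

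With 1 library left out, the difference ran from -4.45 to -0.232 downstream, from 6.95 to 16.6 for 10 to 50 kb, from -9.47 to -1.28 for 50 to 100 kb, from -3.62 to 5.45 for 100 to 250 kb, from -7.03 to -3.77 for 250 to 500 kb, from -0.605 to 3.36 for 500 to 1000 kb and from -4.08 to 3.59 on genes. It ran from 0.0792 to 7.19 for Eps15l1, 0.256 to 2.70 for Olfr373, 0.763 to 3.61 for Rab8a, -3.90 to -1.32 for Cib3, -4.0 to 0.768 for Tmem38a, -0.0692 to 1.7 for Tpm4, -2.28 to 0.344 for Cherp, -2.63 to 0.0934 for 1700030K09Rik, -1.03 to 0.187 for Slc35e1, -1.83 to 0.697 for Ap1m1, -0.0157 to 2.94 for Gm10282 and -0.846 to 0.204 for Unc13a. Against the other baits it ran from -9.81 to -7.42 (downstream), 4.1 to 8.2 (within 100 kb) and 6.77 to 10.5 (on genes), and the excess on genes from 7.08 to 9.6. With 1 library left out, of these 3 comparisons with the other baits only the downstream difference passed, without IFNγ-named library 4, at -9.81 (adjusted p = 0.0469, exact). The bait total ran from -0.46 to -0.25 (log2), and edgeR called 0 Klf2 pairs, windows or genes each time.

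At a score of 3 or more the tables had 63 and 57 called Klf2 contacts, and at 7 or more 0 and 0. With no read minimum edgeR called 168 of 30435 pairs and 4 Klf2 pairs, all lower in the IFNγ-named table, with 86.7 to 100.0% of the reads of each in 1 library. That setting put the median log2 difference of all pairs at -1.52. In the other settings edgeR and DESeq2 called 0 Klf2 pairs. Few reads limit the comparison between tables for genes such as Hsh2d with 9.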
